A study of Homo sapiens with 6 samples.

Results

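Mitochondrial folate and glycine cleavage enzymes were examined after knockdown of SHMT2 in LX2, a line of human hepatic stellate cells. The 10 genes were chosen by name for their place in the pathway, from 60623 genes in the deposited table: SHMT2, MTHFD2, MTHFD2L, MTHFD1L, ALDH1L2, SLC25A32, MTFMT, GCSH, AMT and GLDC. All 10 were in the table. The siSHMT2 group held 3 libraries of cells transfected with an siRNA against SHMT2, and the siNC group held 3 libraries of wild-type cells transfected with siNC. Both groups were grown in DMEM with 2% serum and collected 36 h after transfection. Cells without transfection were not analysed here, and the siRNA sequences were not used here. Whether replicates came from separate cultures is not stated, and the p-values below cover only the spread among these libraries, which may be technical.

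Mitochondria hold their own set of folate enzymes. SHMT2 takes a carbon unit from serine and makes glycine, MTHFD2 or MTHFD2L oxidises that unit, and MTHFD1L releases it as formate for the cytosol, where it feeds purine and thymidylate synthesis. ALDH1L2 instead burns the unit to carbon dioxide and makes NADPH, and MTFMT uses it to formylate the initiator methionine of mitochondrial translation. The glycine cleavage system runs from glycine: GLDC (the P protein) decarboxylates it, the lipoylated carrier GCSH (the H protein) holds the remaining group, and AMT (the T protein) passes its carbon to folate. SLC25A32 carries folate into mitochondria.

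Recovered reads ran from 14722344 to 15669139 per library. The spread between siSHMT2 libraries was smaller than between siNC libraries (median SD of 0.105 and 0.191 on the log2 scale). Of 13 stellate cell markers, 8 had a mean of at least 1 FPKM (fragments per kilobase of gene length, scaled by library total), with summed levels of 917 to 1016 FPKM in siSHMT2 libraries and 1266 to 1395 in siNC libraries. VIM alone had 473 to 527 FPKM in siSHMT2 libraries and 739 to 930 in siNC libraries. THY1 was also lower without overlap, while COL1A1, COL1A2, COL3A1, SPARC, TAGLN and PDGFRB overlapped between groups. LRAT, which stores retinol in quiescent stellate cells, was listed at 0 in every library, and ACTA2, the actin of activated stellate cells, was below 1 FPKM in each. Hepatocyte markers summed to 0.299 to 0.454 FPKM in siSHMT2 libraries and 0.330 to 1.36 in siNC libraries, and 0 of 7 passed that level. Of endothelial, macrophage and cholangiocyte markers, CD14, SOX9 and KRT7 passed it, and their part in the results was not tested.

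Within the pathway, knockdown removed most of the SHMT2 transcript, and MTHFD2, the next enzyme, was moderately lower. Of the 10 genes, 6 had a mean of at least 1 FPKM over the 6 libraries and were tested, and 4 (ALDH1L2, GLDC, SLC25A32 and AMT) lay below that filter. Two-sided limma tests on log2(FPKM + 1), with Benjamini-Hochberg adjustment over all 10865 genes tested and a threshold of 0.05, called 2 of the 6 lower, SHMT2 and MTHFD2, and 0 higher. Over all genes tested, 9.85% were called lower and 6.07% higher. Besides the targeted gene, 1 of 5 was thus called. Without siSHMT2 replicate 1, 2 or 3, the genes called lower numbered 502, 595 and 544 instead of 1070, and those called higher 228, 281 and 249 instead of 659. Groups did not overlap, with siSHMT2 lower, for 4 of the 6 (SHMT2, MTHFD2, MTHFD1L and MTFMT), against 18.6% of all genes tested.

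**Figure D1:**
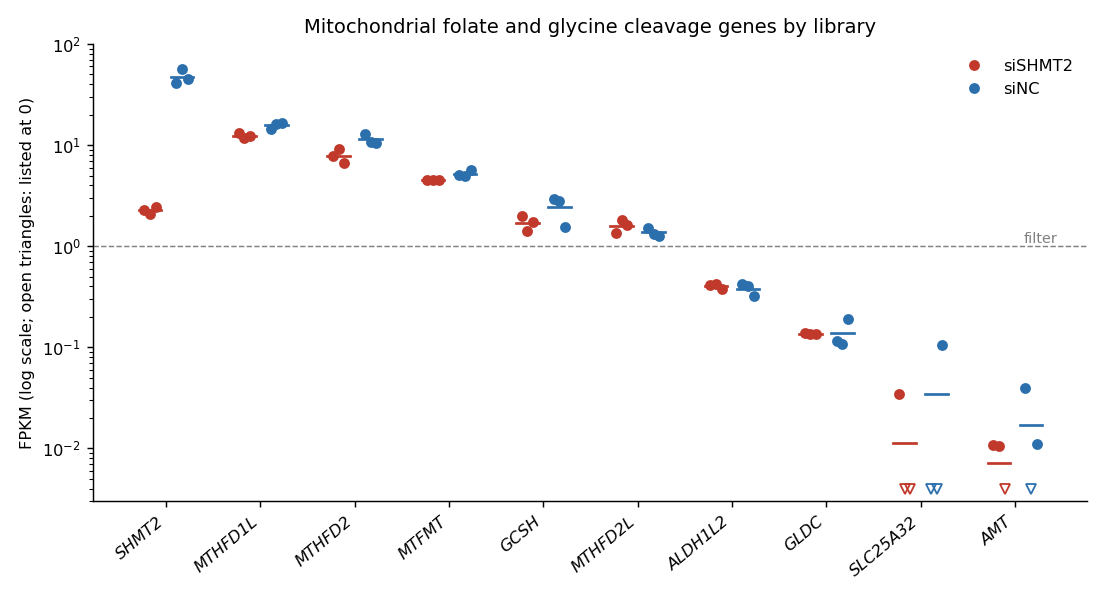
FPKM of the 10 genes in each library on a log scale, with siSHMT2 (red) left of siNC (blue), horizontal bars at group means and open triangles for libraries listed at 0. SHMT2 is separated by more than a factor of 10 between groups, while ALDH1L2, GLDC, SLC25A32 and AMT lie below the dashed filter line at 1 FPKM.

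SHMT2 (chromosome 12, 57229573 to 57234935, plus strand, in the table, whose coordinates match GRCh38) had 2.25, 2.10 and 2.42 FPKM in siSHMT2 replicates 1, 2 and 3, against 40.8, 56.3 and 45.1 FPKM in siNC replicates 1, 2 and 3. All siSHMT2 libraries were low and close together, and the groups lay far apart. The mean in siSHMT2 libraries came to 4.77% of that in siNC libraries, and SHMT2 fell by 3.88 on the log2(FPKM + 1) scale (SE 0.132, limma adjusted p = 2.08e-05). An exact permutation test, two-sided, gave p = 0.1, the smallest that 3 against 3 libraries allow. In RNA from whole cultures, fewer transcripts in every cell and fewer cells that carry the transcript cannot be told apart.

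The remaining SHMT2 was still above its cytosolic counterpart SHMT1, which makes the same conversion outside mitochondria. SHMT1 had 1.04, 0.837 and 0.339 FPKM in siSHMT2 replicates 1 to 3, against 0.730, 0.275 and 0.253 in siNC replicates 1 to 3. Its groups overlapped and its mean of 0.578 FPKM was below the filter. Of the summed FPKM of both genes, SHMT2 made up 68.5%, 71.5% and 87.7% in siSHMT2 replicates 1 to 3, against 98.2%, 99.5% and 99.4% in siNC replicates 1 to 3.

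Sequences are shown for the short words that went most strongly with lower transcripts in this comparison. Among 15477 words of 7 bases in the 3′ UTRs of 9385 tested protein-coding genes, SHMT2 left out, GACTTTA ranked first and ACTTTAA second for lower fold change, given UTR length and GC content. The words were picked on these same fold changes and overlap by 6 bases. The ranking, and the shares of 3′ UTRs given below, used the longest 3′ UTR of each gene. Sites in named genes were searched on the sense strand of the transcript with the longest coding sequence (GENCODE 29, GRCh38). Other transcripts of those genes were not searched for sites. In the lines below, 30 transcript bases run 5′ to 3′ with the word in capitals, for the targeted gene, for MTHFD2, and for MTFMT and GCSH, which also passed the filter.
SHMT2, chr12:57234048-57234077, plus strand, coding sequence, exon 11 of 12: ggagagttgtgGACTTTAtagatgaagggg
MTHFD2, chr2:74214984-74215013, plus strand, 3′ UTR, exon 8 of 8: ttttgctatatACTTTAActtcattgttaa
MTFMT, chr15:65016443-65016472, minus strand, coding sequence, exon 6 of 9: acaaatattcaGACTTTAccgtgccattgg
GCSH, chr16:81082243-81082272, minus strand, 3′ UTR, exon 5 of 5: tgaaagtgctaACTTTAActtacggaaagt

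GACTTTA stood in the coding sequence of 6.73% of tested protein-coding genes with a coding sequence of like length (162 of 2407). ACTTTAA stood in 36.5% of 3′ UTRs of like length to the 3323 bases of MTHFD2 (470 of 1288). The shares were 5.44% for the coding sequence of MTFMT and 9.86% for the 3′ UTR of GCSH. MTHFD2L, MTHFD1L and AMT held neither word. ALDH1L2 and GLDC held ACTTTAA in the 3′ UTR, and GLDC and SLC25A32 held GACTTTA in the coding sequence. Over all searched genes the median log2 fold change was -0.13 in the 2309 with either word in the longest 3′ UTR and 0.06 in the 7076 with neither. Of these, 553 and 408 were called lower. Because the words were picked on these same fold changes, the direction of that contrast was set in advance. Among called neighbouring genes searched, the lower SFXN1 held both words in the 3′ UTR. PSPH, also lower, held ACTTTAA in the 3′ UTR and the coding sequence. In the coding sequence only, the lower PSAT1 held GACTTTA and the higher OXSM held ACTTTAA. ISCA1 and MTHFS, both higher, held neither. Their 3′ UTRs differ in length, which bears on how often a word occurs. SFXN1 has 3008 bases, PSPH 695, PSAT1 1007, OXSM 40, ISCA1 1497 and MTHFS 234. Shares at like length were not computed for these neighbouring genes, so no link to direction can be read. A match is a description only, and its part in any value below was not tested.

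MTHFD2 (chromosome 2, 74198610 to 74217565, plus strand), the mitochondrial dehydrogenase and cyclohydrolase, had 7.72, 9.24 and 6.61 FPKM in siSHMT2 replicates 1 to 3, against 12.9, 10.7 and 10.6 FPKM in siNC replicates 1 to 3. Every siSHMT2 library lay below every siNC library, with siSHMT2 replicate 2 the nearest to the siNC libraries. It fell by 0.49 on the log2 scale (SE 0.136, 95% interval -0.80 to -0.17, limma adjusted p = 0.0473), to 69.0% of the siNC mean. The exact permutation p was 0.1, again the smallest possible.

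The MTHFD2 call was a marginal one. It was kept without siSHMT2 replicate 2 (adjusted p = 0.0465) and lost without siSHMT2 replicates 1 or 3 (adjusted p = 0.152 and 0.165) or siNC replicates 1, 2 or 3 (adjusted p = 0.0878, 0.0613 and 0.0764), all by limma. Its log2 fold change was negative under all 15 other settings, from -0.60 to -0.39, and 5 of them kept the call. With values rescaled to TPM it was -0.43 (adjusted p = 0.213), in a fit where the median of all genes moved to 0.11 from 0.02.

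**Figure D2:**
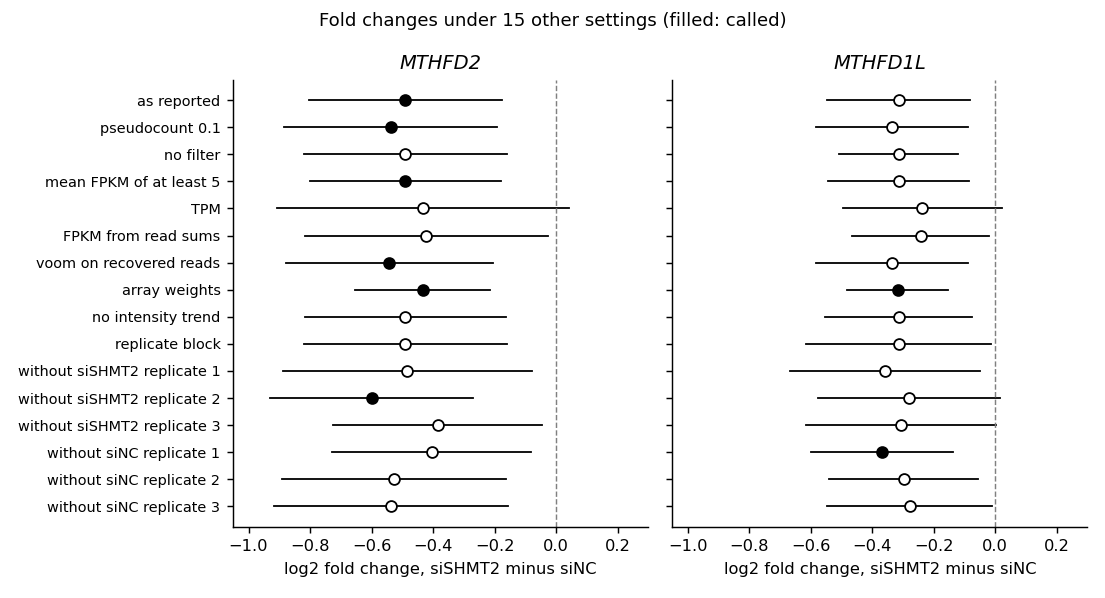
Log2 fold changes of MTHFD2 and MTHFD1L, siSHMT2 minus siNC, with 95% intervals as reported and under 15 other settings, filled where called. MTHFD2 lies between -0.60 and -0.39 and is filled in 5 of the other settings, and MTHFD1L lies between -0.37 and -0.24 and is filled in 2.

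The antisense strand of the MTHFD2 locus carries exons of SLC4A5 and of another gene model, which together cover 33.2% of its exonic bases. Both were at or below 0.0251 FPKM in every library. Whether counting used strand is not stated, and reads from such overlaps then cannot be assigned.

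MTHFD2L (chromosome 4, 74114174 to 74303099, plus strand), the second mitochondrial dehydrogenase and cyclohydrolase, was less abundant than MTHFD2 in every library. It had 1.37, 1.82 and 1.61 FPKM in siSHMT2 replicates 1 to 3, against 1.52, 1.32 and 1.26 FPKM in siNC replicates 1 to 3. The groups overlapped, and the log2 difference of 0.13 did not pass the test (SE 0.118, 95% interval -0.14 to 0.40, limma adjusted p = 0.502). The highest level, in siSHMT2 replicate 2, came from 296 reads.

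MTHFD2 and MTHFD2L were also compared within each library, where library scaling does not enter. The ratio of MTHFD2 to MTHFD2L FPKM was 5.65, 5.08 and 4.11 in siSHMT2 replicates 1 to 3, against 8.48, 8.11 and 8.37 in siNC replicates 1 to 3. All siSHMT2 ratios were lower, with means of 4.95 ± 0.783 in siSHMT2 and 8.32 ± 0.189 in siNC (SD, n = 3 each). The exact permutation test of this ratio, two-sided, gave p = 0.1, the smallest possible, and an adjusted p of 0.133 over the 4 such tests made. The ratio of MTHFD2 to MTHFD1L overlapped between groups, at 0.538 to 0.785 in siSHMT2 and 0.638 to 0.890 in siNC (exact permutation p = 0.5, n = 3 each).

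**Figure D3:**
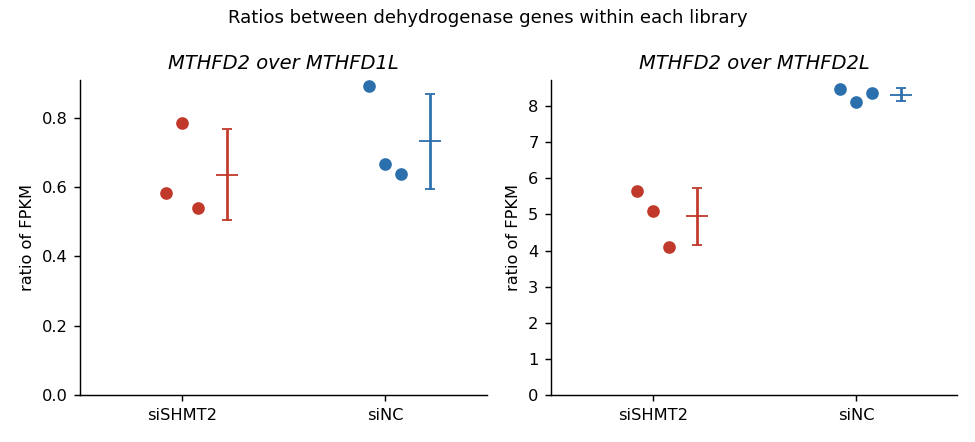
Ratio of MTHFD2 to MTHFD1L FPKM (left) and to MTHFD2L FPKM (right) in each library, from 0, with points for libraries and dashes with bars for mean and SD (n = 3 per group). The ratio to MTHFD2L lies between 4.11 and 5.65 in siSHMT2 and between 8.11 and 8.48 in siNC, while the ratio to MTHFD1L overlaps between groups.

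MTHFD1L (chromosome 6, 150865549 to 151101887, plus strand), the mitochondrial formyltetrahydrofolate synthetase that releases formate, had 13.2, 11.8 and 12.3 FPKM in siSHMT2 replicates 1 to 3, against 14.5, 16.1 and 16.6 FPKM in siNC replicates 1 to 3. The groups did not overlap. Its log2 difference of -0.31 nevertheless missed the threshold over all genes (SE 0.0999, 95% interval -0.55 to -0.08, limma adjusted p = 0.0728). Without siNC replicate 1 it was called at -0.37 (adjusted p = 0.0450). MTHFD1L was the most abundant of the 10 genes in siSHMT2 libraries, and no other gene of the annotation overlaps its exons.

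**Figure D4:**
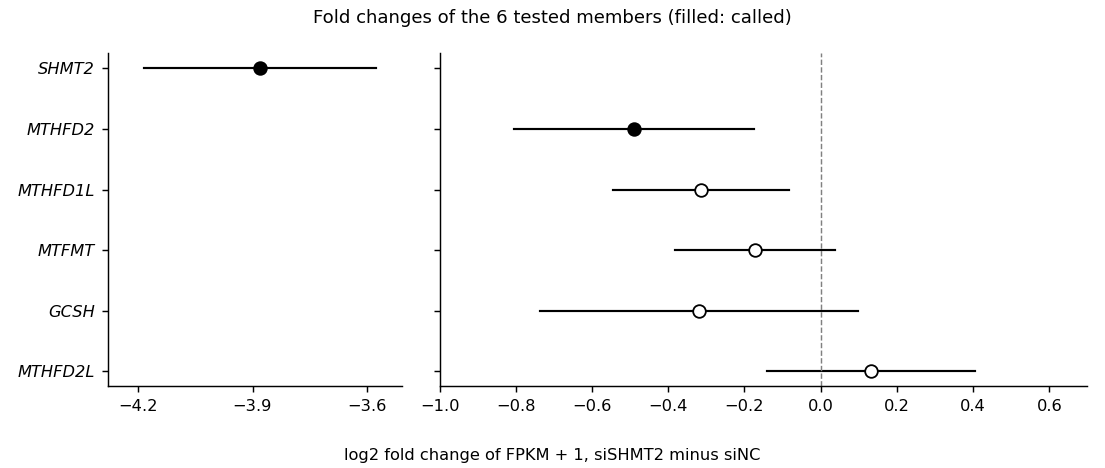
Log2 fold changes of the 6 tested genes, siSHMT2 minus siNC, with 95% intervals from limma, filled where the adjusted p was under 0.05. SHMT2 is drawn in its own panel at the same scale. MTHFD2 at -0.49 is the only other filled point, and the intervals of MTFMT, GCSH and MTHFD2L cross 0.

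MTFMT (chromosome 15, 65001512 to 65029639, minus strand), the methionyl-tRNA formyltransferase of mitochondria, had 4.53, 4.48 and 4.50 FPKM in siSHMT2 replicates 1 to 3, against 5.03, 4.95 and 5.65 FPKM in siNC replicates 1 to 3. The groups did not overlap, but they lay close, at -0.17 on the log2 scale (SE 0.0904, 95% interval -0.38 to 0.04, limma adjusted p = 0.250). The siSHMT2 libraries differed by a coefficient of variation of 0.501%, below the 6.33% that counting 244 to 255 reads gives, so their closeness is narrower than the depth can resolve.

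ALDH1L2 (chromosome 12, 105019784 to 105107643, minus strand), the mitochondrial formyltetrahydrofolate dehydrogenase, was low in both groups. It had 0.414, 0.426 and 0.373 FPKM in siSHMT2 replicates 1 to 3, against 0.421, 0.400 and 0.321 FPKM in siNC replicates 1 to 3. The groups overlapped, with 186 reads in all in siSHMT2 (95% exact Poisson interval 160 to 215) and 173 in siNC (148 to 201). These intervals cover counting error only.

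Of the P, H and T proteins of glycine cleavage, GCSH, the H protein, passed the filter and GLDC and AMT did not. GCSH (chromosome 16, 81081938 to 81096425, minus strand) had 1.97, 1.43 and 1.72 FPKM in siSHMT2 replicates 1 to 3, against 2.92, 2.80 and 1.56 FPKM in siNC replicates 1 to 3. The groups overlapped because siNC replicate 3 was low. The log2 difference was -0.32 (SE 0.181, 95% interval -0.74 to 0.10, limma adjusted p = 0.286), -0.52 without siNC replicate 3 (adjusted p = 0.0508), and 0.055 with array weights (adjusted p = 0.776).

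Levels of GCSH are uncertain because its processed pseudogene may share reads with it. This copy, GCSHP5 (chromosome 1, 168055901 to 168056422) had 5.97, 15.4 and 9.33 FPKM in siSHMT2 replicates 1 to 3, against 17.2, 13.2 and 12.3 FPKM in siNC replicates 1 to 3. These values rest on 50 to 133 reads in siSHMT2 libraries and 100 to 157 in siNC libraries. Per length, GCSHP5 stood at 3.04 to 10.8 times GCSH in siSHMT2 and 4.73 to 7.90 times in siNC. How reads of the parent gene and its copy were divided is not stated.

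GLDC (chromosome 9, 6532464 to 6645783, minus strand), the decarboxylase that commits glycine to cleavage, had 0.140, 0.135 and 0.134 FPKM in siSHMT2 replicates 1 to 3, against 0.115, 0.108 and 0.192 FPKM in siNC replicates 1 to 3. The groups overlapped, and each held 59 reads in all (95% exact Poisson interval 44.9 to 76.1). A difference was not detectable at this depth.

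AMT and SLC25A32 were near 0 in every library. AMT (chromosome 3, 49416775 to 49422753, minus strand) had 1, 1 and 0 reads in siSHMT2 replicates 1 to 3, against 4, 0 and 1 reads in siNC replicates 1 to 3. SLC25A32 (chromosome 8, 103398635 to 103415189, minus strand) had 2, 0 and 0 reads in siSHMT2 replicates 1 to 3, against 0, 0 and 6 in siNC replicates 1 to 3. No difference can be read from such counts.

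The low values of both genes went with overlapping annotation. Another protein-coding gene model on the same strand covers 63.1% of the exonic bases of AMT and 69.7% of those of SLC25A32 in GENCODE 29, and both models were listed at 0 in every library. None of the other 8 genes was covered by a gene on its own strand except GCSH. Over all protein-coding genes, 752 of 775 (97.0%) with at least 60% of exonic bases so covered had a mean below 1 FPKM, against 8419 of 16523 (51.0%) with none covered. The 775 had a median of 0 FPKM. Gene models that lie over other genes were not left out of them. The contrast therefore cannot be read for genes such as AMT and SLC25A32 alone. Reads that fall in several genes are left out by featureCounts unless it is told otherwise, and the setting used is not stated. A value near 0 for AMT or SLC25A32 therefore does not show that the transcript is missing, and the part of overlap in it was not tested.

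The order of the 10 levels changed in the place of SHMT2. In siSHMT2 libraries MTHFD1L came first with a mean of 12.4 ± 0.747 FPKM (SD, n = 3), then MTHFD2 (7.86 ± 1.32), MTFMT (4.501 ± 0.0226) and SHMT2 (2.26 ± 0.161). In siNC libraries SHMT2 came first with 47.4 ± 8.02 FPKM, then MTHFD1L (15.7 ± 1.09), MTHFD2 (11.4 ± 1.30) and MTFMT (5.21 ± 0.382). Below these, GCSH, MTHFD2L, ALDH1L2, GLDC, SLC25A32 and AMT followed in that order in both groups. Ranges of neighbours overlapped between GCSH and MTHFD2L in siSHMT2, and between SLC25A32 and AMT in both groups.

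Genes whose pattern over the 6 libraries was most like that of MTHFD2, by the root mean square difference of centred log2 levels among 9488 other tested protein-coding genes, were PRKCI, UAP1 and TIPARP (0.0411, 0.0414 and 0.0548). For SHMT2 they were IL1B, PTX3 and CXCL8, at larger differences of 0.367, 0.572 and 0.594. The 6 libraries form 2 groups, so likeness mainly reflects the size of the group difference.

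Other genes around the pathway were described by list, each against the median of 0.02 over all genes tested. The last enzyme of glycine cleavage, the L protein DLD, is shared with other dehydrogenase complexes, and GCSH needs lipoate. Of 17 genes for DLD and lipoate and iron-sulphur supply, 15 were tested, 2 were higher and 0 lower, with a median of 0.26. ISCA1, an iron-sulphur assembly protein, rose to 11.1 ± 0.928 FPKM in siSHMT2, against 6.75 ± 0.660 in siNC (SD, n = 3, log2 fold change 0.64, limma adjusted p = 0.00704), and was called without any 1 library. OXSM, the mitochondrial fatty acid synthase condensing enzyme, rose by 0.52 (adjusted p = 0.0284). Its call was lost without siSHMT2 replicates 1, 2 or 3 (adjusted p = 0.114, 0.0930 and 0.0849) or siNC replicates 1 or 2 (0.0519 and 0.0587). No filter and the replicate block lost the OXSM call as well (adjusted p = 0.0991 and 0.0644). DLD had 19.9 ± 1.74 FPKM in siSHMT2 and 17.4 ± 2.00 in siNC (adjusted p = 0.335). The list's median was 0.13 without siNC replicate 3, where 4 genes were called higher (525 of 10841 over all genes), and 0.17 without siNC replicate 1. Array weights called 4 higher and 2 lower, with a median of 0.15. They called 1827 higher and 1976 lower of all 10865.

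Of 12 genes that supply mitochondria with serine, glycine or folate, or also use folate there, 8 were tested, 1 was lower and 0 higher, with a median of -0.13. The lower one was SFXN1, the mitochondrial serine transporter upstream of SHMT2. SFXN1 had 6.19, 5.46 and 5.89 FPKM in siSHMT2 replicates 1 to 3, against 13.7, 12.1 and 12.7 FPKM in siNC replicates 1 to 3, with no overlap. It fell by 1.02 (SE 0.0955, limma adjusted p = 0.000620) and was called without any 1 library. The list's median was -0.23 without siSHMT2 replicate 3, -0.22 without siNC replicate 1 and -0.06 with TPM. Array weights called 4 of its genes lower and 1 higher, with a median of -0.21. Over all 10865 genes they called 1976 lower and 1827 higher.

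Serine synthesis and its transcription factor ATF4, which also drives mitochondrial folate genes, had 8 of 10 genes tested, 2 lower and 0 higher, with a median of -0.37. PSAT1, the aminotransferase of serine synthesis, had 5.81 ± 1.06 FPKM in siSHMT2 and 28.0 ± 1.38 in siNC (SD, n = 3). It fell by 2.10 (limma adjusted p = 0.000158), and the phosphatase PSPH fell by 1.11 (adjusted p = 0.00293). Both were called without any 1 library. ATF4 had 134.7 ± 3.14 FPKM in siSHMT2 and 185.3 ± 33.2 in siNC, which did not pass the test (-0.44, adjusted p = 0.0897) but did without siNC replicate 1 (-0.55, adjusted p = 0.0336), with voom on recovered reads (adjusted p = 0.0470) and with array weights (adjusted p = 0.00696). Without siNC replicate 1, 5 of the 8 were called lower, against 1107 of 10832 over all genes. With voom 4 of the 8 were, against 1179 of 10865. Array weights called 5 lower and 1 higher, against 1976 lower and 1827 higher of all 10865. Without siNC replicate 2, 2 were called lower and 1 higher, with a list median of -0.25. Over all 10879 genes in that fit, 1124 were called lower and 731 higher. The list median was -0.27 without a filter. PHGDH, the first enzyme of serine synthesis, had 29.2 ± 3.64 FPKM in siSHMT2 and 35.2 ± 8.42 in siNC (adjusted p = 0.431).

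In the cytosolic folate list 5 of 8 genes were tested, 1 was higher and 0 lower, with a median of 0.01. MTHFS, which returns 5-formyltetrahydrofolate to the active pool, rose by 0.84 (limma adjusted p = 0.0408), with 2.50 ± 0.370 FPKM in siSHMT2 and 1.02 ± 0.661 in siNC (SD, n = 3). That call was lost without siSHMT2 replicates 1, 2 or 3 (adjusted p = 0.0969, 0.137 and 0.103) or siNC replicates 1 or 2 (0.0776 and 0.0730). Other settings lost it too: pseudocount 0.1, no filter, TPM, array weights and the replicate block (adjusted p = 0.0549, 0.162, 0.0506, 0.0753 and 0.0688). MTHFD1, the cytosolic enzyme that combines the activities of MTHFD2 and MTHFD1L, had 11.8 ± 0.197 FPKM in siSHMT2 and 10.6 ± 1.81 in siNC (adjusted p = 0.457). The sign of this list's median was not stable, being negative without siSHMT2 replicate 3, without siNC replicates 1, 2 or 3, with array weights and at a mean of at least 5 FPKM.

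Users of formylated methionine and of glycine gave no call. Of 8 genes for formylmethionine removal, mitochondrial initiation and tRNA modification, all were tested and 0 were called, with a median of 0.08. That median was 0.13 without siNC replicate 1, 0.04 without siNC replicate 2 and 0.02 without siNC replicate 3. Of 4 genes that use glycine, 3 were tested and 0 were called, with a median of 0.03. At an unadjusted p under 0.05 these lists held 0 of 11 genes, against 3287 of all 10865. Array weights called 2 of the 11, both higher, against 1827 of 10865 called higher in that setting. The median of the glycine users was negative with array weights (-0.10) and without siNC replicate 2 (-0.07), and 0.12 without siNC replicate 3.

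All 13 protein genes of mitochondrial DNA, whose translation starts with formylated methionine, had negative log2 differences (5121 of all 10865 genes tested did). Their median was -0.32. Only MT-CYB, the cytochrome b of complex III, passed the test, falling by 0.72 (limma adjusted p = 0.0473) to 2363 ± 428.8 FPKM in siSHMT2, against 3870.3 ± 251 in siNC (SD, n = 3). It was not called without siSHMT2 replicates 1, 2 or 3 (adjusted p = 0.0698, 0.191 and 0.169) or siNC replicates 2 or 3 (0.0886 and 0.0957). Nor was MT-CYB called without a filter (adjusted p = 0.521) or with the replicate block (0.121). Mitochondrial transcripts share one genome and polycistronic precursors, so the 13 values are not independent. With TPM the median was -0.22, beside 0.11 for all genes, and with array weights it was -0.20. In 3 settings (array weights, without siNC replicate 1 and without siNC replicate 3) 12 of the 13 were negative.

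**Figure D5:**
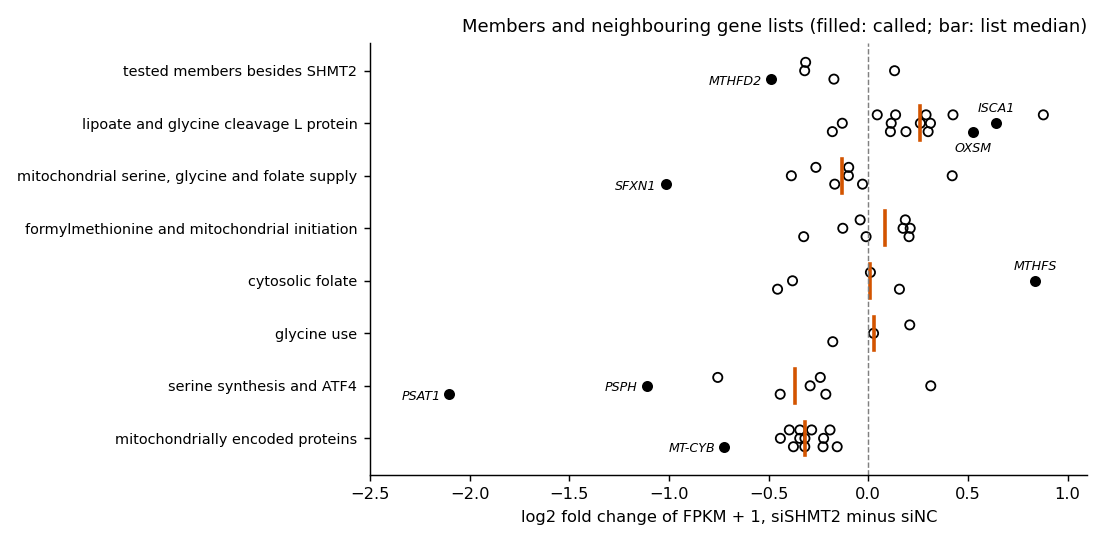
Log2 fold changes, siSHMT2 minus siNC, of the tested genes among the 10 besides SHMT2 and of each neighbouring list, filled and named where called, with an orange bar at each list's median. The lowest points are PSAT1 at -2.10, PSPH at -1.11 and SFXN1 at -1.02, and the 13 mitochondrially encoded genes lie below 0, except 1 of them in 3 of the other settings.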

How the data were processed

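RNA-seq of 3 siSHMT2 and 3 siNC libraries was used, grouped by sample title. The authors deposited 1 table of FPKM values with gene coordinates and lengths. Tools named by the submitters' processing notes are featureCounts 1.5.0-p3 and HISAT2 2.0.5, with hg18 as build. Of 58516 identifiers shared with GENCODE 29 (GRCh38), however, 99.9% overlapped on the same chromosome and 79.7% had identical start and end. FPKM times length gave whole multiples of 1 step for 100% of values above 0 (within 0.02), which recovered reads. The authors' scaling totals were 0.957 to 1.13 times the read sums, for a reason not stated.

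Genes with a mean of at least 1 FPKM were tested with limma 3.58.1 (R 4.3.3) on log2(FPKM + 1), with an intensity trend. The added 1 understates changes of low genes. Words were ranked by regression in Python 3.11.15 with numpy 2.4.6, among words present in at least 100 genes with a 3′ UTR of at least 50 bases. Alternatives covered pseudocount, filter, scaling, voom on recovered reads, weights, trend, a replicate block and each library left out. Members, lists and tests were chosen with earlier results of these data known. Named genes were the 10 members, called list genes (up to 4 by adjusted p), SHMT1, MTHFD1, DLD, SFXN1, PHGDH, PSAT1, ATF4, and the 3 nearest patterns to SHMT2 and MTHFD2. GCSHP5, SLC4A5, LRAT, ACTA2, CD14, SOX9 and KRT7 were added after their values were seen. So were the other stellate cell markers named.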

Additional observations from a re-analysis of the deposited data

How the results depend on the processing

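SHMT2 was called under all 15 alternatives, with log2 fold changes from -4.38 to -3.75. MTHFD2 stayed negative but was not called without a filter (-0.49), with TPM (-0.43), with FPKM from read sums (-0.42), without the intensity trend (-0.49) or with the replicate block (-0.49, adjusted p = 0.0769), and ran from -0.60 to -0.39 with 1 library left out. Members called lower numbered 1 under each of these 5 settings, 4 with array weights (MTHFD1L and MTFMT joining) and 1 to 2 with 1 library left out. No member was called higher in any setting. Genes called lower numbered 603 without a filter, 618 at a mean of at least 5 FPKM, 620 with TPM, 1976 with array weights, 696 with the replicate block and 502 to 1124 with 1 library left out. Genes called higher numbered 333 without a filter, 1827 with array weights, 374 with the replicate block and 228 to 731 with 1 library left out. With TPM 686 were called higher, and with FPKM from read sums 767 lower and 796 higher. Testing 27069 genes instead of 10865 adds tests, and leaving out a library removes samples; the cause of other changes was not tested. GCSH turned positive with array weights (0.055). Deviations from group means in same-numbered libraries had r = -0.018, -0.35 and 0.24 for replicates 1, 2 and 3. Differently numbered libraries ran from -0.48 to 0.50. With 3 libraries per group, these values cannot settle whether the numbers pair libraries. At a mean of at least 5 FPKM, MTFMT, GCSH and MTHFD2L had too low a level to be tested. Depth limits ALDH1L2, GLDC, AMT and SLC25A32. With no filter, where these 4 were tested, 0 were called (adjusted p from 0.750 to 0.994).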
